A study of Saccharomyces cerevisiae with 16 samples.

Results

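The general stress genes described here are 40 genes of budding yeast that are commonly placed under the transcription factors Msn2 and Msn4. They were taken by name, with earlier results of these data known, and all 40 were listed in each of the 4 deposited tables, which hold 6885 distinct features between them. The effect of a gene in a table is the log2 of its mean in condition B over its mean in condition A.

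Msn2 and Msn4 are related zinc-finger proteins that are kept in the cytoplasm while protein kinase A is active and enter the nucleus when glucose runs low or when heat, osmotic stress or oxidants reach the cell. In the nucleus they bind the stress response element, a short motif with the core AGGGG. Their targets make chaperones, antioxidant enzymes, small protective proteins and enzymes of carbon metabolism, and many are also switched on as cells leave rapid growth.

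The study sequenced RNA from Saccharomyces cerevisiae in which, per the labels, chromosomal HRR25 (the yeast casein kinase 1 delta/epsilon homologue) was replaced by a kanMX4 cassette, in a his3Δ leu2Δ ura3Δ background that all groups share. WT cells carried HRR25 on pRS316 (URA3 marker), hrr25as cells carried hrr25-I82G on pRS315 (LEU2 marker), and hrr25is cells carried hrr25 with I82G and I23C on pRS315. Cultures in YPD at 30°C and an OD600 of 0.3 were treated for 1 hour. The 16 samples form 8 groups of 2: WT with DMSO or 3MBPP1, hrr25as with DMSO or 3MBPP1, another WT pair with DMSO or CMK, and hrr25is with DMSO or CMK. 3MBPP1 is an inhibitor of the kind used with analogue-sensitive kinases, and CMK is not expanded in the labels. Doses are not given in the sources used here, and nothing there says that the replicates were separate cultures, so a p-value here reflects only how far these samples spread, which may be technical. By these labels the kinase copy in every strain is on a plasmid, and the marker reads given next differ between the sets of libraries labelled WT.

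Each table compared 2 of these groups, named condition A and condition B, and the headers do not say which was DMSO. Every direction below is therefore condition B relative to condition A. Whole reads per library were recovered from the deposited condition means, and depth was 10505164 to 13998631 reads per library for 3MBPP1 in WT, 4275991 to 6592340 for 3MBPP1 in hrr25as, and 9568820 to 34122412 and 16815301 to 34122412 for CMK in WT and hrr25is. The 2 libraries of a condition are told apart only by their size factor, the number that scales for depth, and are called the smaller and the larger library. The larger condition B library of CMK in WT also stands as the larger condition B library of CMK in hrr25is, equal at all 6760 features, so the tables hold 15 distinct libraries. Its marker reads were those of the other CMK libraries labelled WT, with URA3 at 1629 RPM (reads per 1e6 counted reads) and LEU2 at 0.440 RPM. The other libraries of CMK in hrr25is had URA3 at 2.48 to 5.23 RPM and LEU2 at 75.4 to 85.8 RPM. Deposited effects of CMK in hrr25is thus include a condition B library with WT markers, and strain and CMK cannot be told apart in it. In the 3MBPP1 libraries labelled WT, LEU2 lay at 38.6 to 54.4 RPM although the label gives leu2Δ and a URA3 plasmid, against 0.132 to 1.67 in the CMK libraries labelled WT. URA3 lay at 91.0 to 120 RPM in those 3MBPP1 libraries and at 1541 to 1842 in the CMK libraries labelled WT, and HRR25 at 117 to 166 against 690.5 to 864. As these values differ between libraries with the same strain label, WT under 3MBPP1 stands below for the libraries labelled WT. Strain and compound comparisons that use them rest on that label, and the part of this difference in them was not tested. Small nucleolar and nuclear RNA took 31.4% to 38.2% of all reads for 3MBPP1 in WT and 5.14% to 18.1% in the other libraries, with 95% Wilson intervals reaching at most 0.0294 percentage points to either side.

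The promoters are shown for 6 genes on which the results turn: the 4 members that passed the deposited test in both 3MBPP1 tables, the member with the highest effect in both, and GRE1, which rose in hrr25as without holding the motif. They are the 180 bases from 250 to 71 before the annotated start of each coding sequence, in the RefSeq R64 genome, which is the sacCer3 build of the files, read 5′ to 3′ on the strand of the gene, with AGGGG and its reverse complement CCCCT in capitals. HSP12 is read from chrVI:107006-107185 on the plus strand, TFS1 from chrXII:513892-514071 on the minus strand, DCS2 from chrXV:657014-657193 on the plus strand, GAD1 from chrXIII:770551-770730 on the plus strand, YMR196W from chrXIII:654826-655005 on the plus strand and GRE1 from chrXVI:129209-129388 on the minus strand.
HSP12: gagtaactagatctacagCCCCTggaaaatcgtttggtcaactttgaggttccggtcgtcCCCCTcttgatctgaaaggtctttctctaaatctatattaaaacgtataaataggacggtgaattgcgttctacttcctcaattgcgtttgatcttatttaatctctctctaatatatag
TFS1: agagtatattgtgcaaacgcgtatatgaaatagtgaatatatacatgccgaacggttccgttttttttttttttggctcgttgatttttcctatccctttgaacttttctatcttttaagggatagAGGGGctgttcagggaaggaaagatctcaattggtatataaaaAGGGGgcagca
DCS2: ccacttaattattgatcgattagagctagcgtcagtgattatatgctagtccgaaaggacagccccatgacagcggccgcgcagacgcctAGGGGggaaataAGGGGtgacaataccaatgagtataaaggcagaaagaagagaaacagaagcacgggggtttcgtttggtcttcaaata
GAD1: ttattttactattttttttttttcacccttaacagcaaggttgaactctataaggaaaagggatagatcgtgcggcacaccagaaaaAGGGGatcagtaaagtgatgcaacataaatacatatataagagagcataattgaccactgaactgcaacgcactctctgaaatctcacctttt
YMR196W: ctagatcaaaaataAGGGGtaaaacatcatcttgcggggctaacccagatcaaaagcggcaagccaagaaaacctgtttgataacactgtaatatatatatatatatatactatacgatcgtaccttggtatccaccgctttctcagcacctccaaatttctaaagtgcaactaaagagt
GRE1: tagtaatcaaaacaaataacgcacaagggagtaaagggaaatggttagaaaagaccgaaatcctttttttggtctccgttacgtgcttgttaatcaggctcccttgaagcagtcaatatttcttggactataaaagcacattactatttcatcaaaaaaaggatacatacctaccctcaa
HSP12, TFS1 and DCS2 each hold 2 matches in the stretch shown, GAD1 and YMR196W hold 1 each, and GRE1 holds none. Over both strands of the 250 bases before the start, 28 of the 40 members held at least 1 match, 70.0% of them, against 18.8% of 6001 yeast promoters of that length. GLK1, HSP42 and DDR2 held 3 matches each, and 10 members held at least 2, against 2.20% of all promoters. The 41 matches lay 77 to 248 bases before the start, with a median of 175.0. The 12 members with none were HSP26, GRE1, SIP18, HOR7, YGP1, HXK1, SPI1, TMA10, XBP1, PHM7, USV1 and PHM8. A window of 500 bases, chosen after the data were seen, held a match in 39 members, all but GRE1, and in 34.1% of 6002 promoters. A match is a string of letters and not a measured binding site. The members were chosen as genes placed under factors that bind this motif, so their excess of matches is not an independent result.

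In the 3MBPP1 tables the stress genes were higher in condition B in both strains. In the authors' deposited WT table for 3MBPP1, 12 of 40 members were higher at an adjusted p under 0.05, against 2.78% of all features, and 0 passed as lower, against 4.59%. In the authors' deposited hrr25as table for 3MBPP1, 15 members passed as higher, against 1.2% of all features, and 0 as lower, against 3.12%. The authors' unadjusted p was under 0.05 for 19 members higher in WT, against 7.52% of all features, and 0 lower, against 8.11%. In hrr25as it was under 0.05 for 22 members higher, against 4.06%, and 0 lower, against 7.51%. In limma, 13 members of WT passed as higher at an adjusted p under 0.05, against 3.29% of all features, and 12 of hrr25as, against 1.02%. Of the authors' calls, MOH1 in WT and SOL4, SPI1 and USV1 in hrr25as did not pass in limma. HSP12 and TMA10 in WT passed only in limma. At an unadjusted p under 0.05 limma counted 23 higher in WT and 28 in hrr25as, against 11.4% and 7.61% of all features. It counted 0 lower at either threshold, against 4.95% and 2.29% of all features at an adjusted p and 11.6% and 10.9% at an unadjusted p. The median effect of the members was 0.71 in WT, beside -0.00 for all features of that table, and 1.01 in hrr25as, beside 0.02. Effects were above 0 for 35 and 38 members, against 49.8% and 52.3% of all features.

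The groups were also separated library by library. Both condition B libraries lay above both condition A libraries for 30 members in WT, against 27.0% of all features, and for 35 in hrr25as, against 24.4%. No member had both condition B libraries below both condition A libraries, a pattern seen for 26.7% and 23.9% of all features. Separation upwards in both tables held for 28 members, against 9.91% of the 6246 features in both, while the condition ranges of CTT1, PHM7 and TKL2 overlapped in both.

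**Figure D1:**
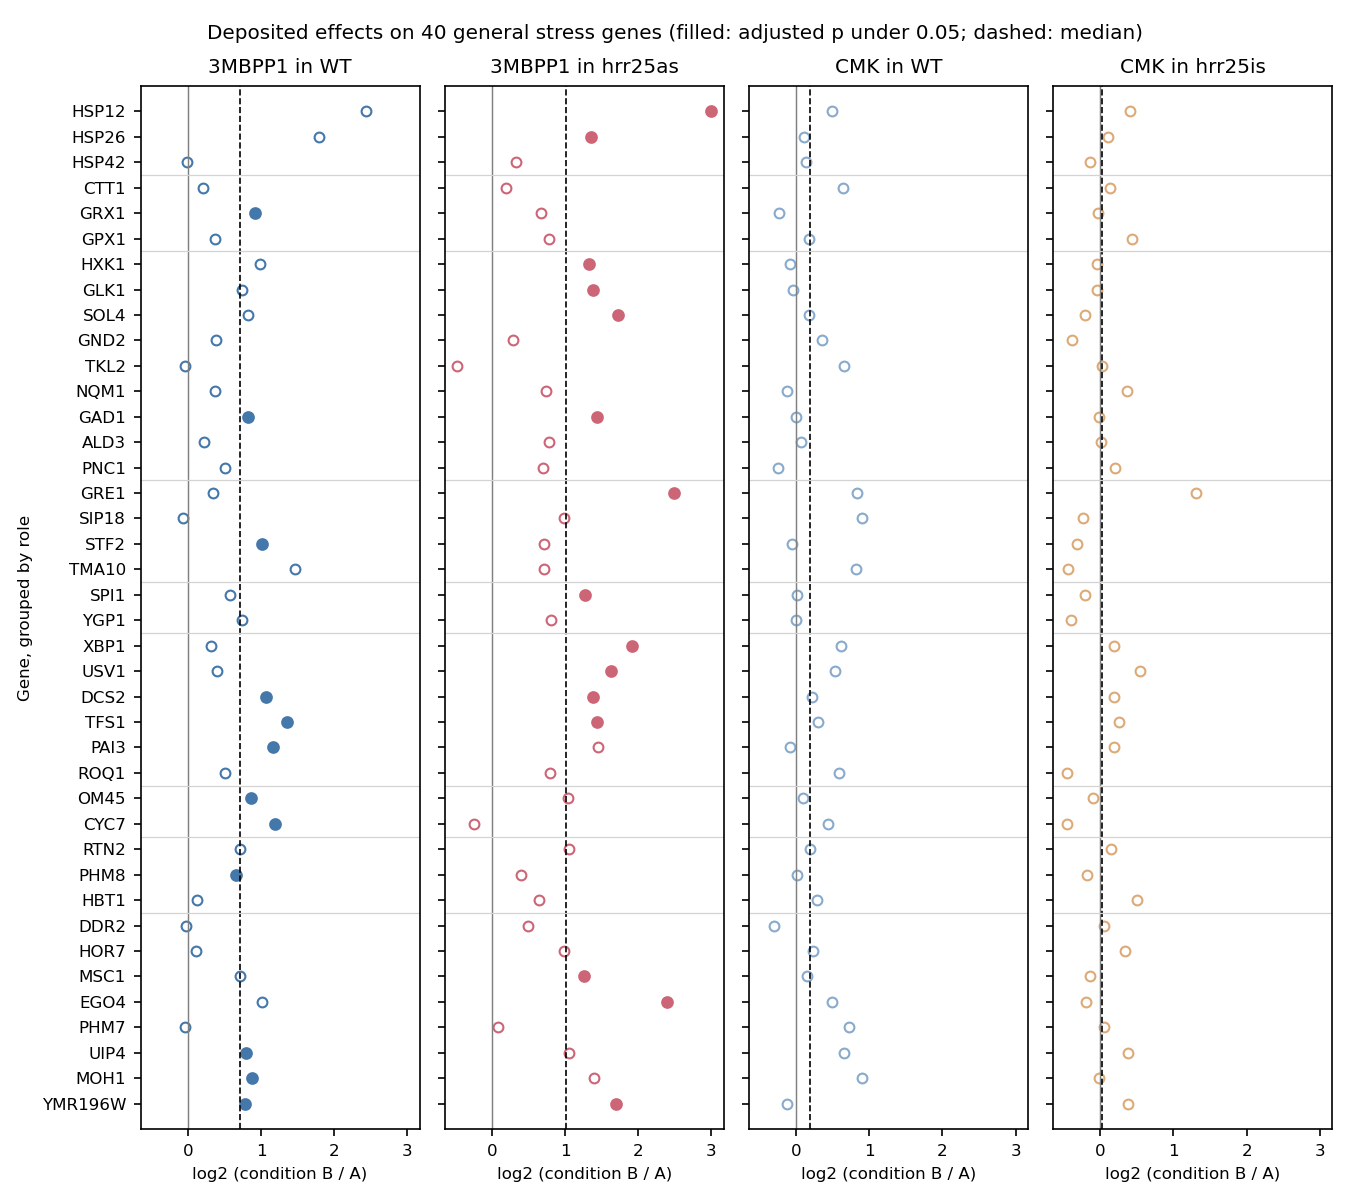
Deposited effects of the 40 general stress genes in the 4 tables, as log2 of condition B over condition A on the horizontal axes, with genes grouped by role on the vertical axis. Filled points had an authors' deposited adjusted p under 0.05 and dashed lines mark the members' median. The medians stand at 0.71 and 1.01 in the 3MBPP1 panels and at 0.19 and 0.02 in the CMK panels, where no point is filled.

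Of the small heat shock proteins, HSP12 had the highest effect of all members in both 3MBPP1 tables. HSP12 (YFL014W, chromosome VI, 107256 to 107585), a small protein that stabilises membranes under stress, had 1499 and 1182 normalised reads in the condition A libraries of 3MBPP1 in WT and 4342 and 10208 in condition B, the smaller library first here and throughout. In hrr25as it had 248 and 325 in condition A and 1830.1 and 2733 in condition B. The condition B libraries were the higher ones in both strains and did not overlap with condition A, and in WT the larger condition B library stood well above the smaller. The authors' deposited table gives HSP12 a log2 effect of 2.99 in hrr25as (adjusted p = 2.8e-05) and of 2.44 in WT, where it did not pass (adjusted p = 0.164). In limma with Benjamini-Hochberg adjustment the same WT libraries gave 2.32 (SE 0.36, 95% interval 1.47 to 3.17, adjusted p = 0.0117). HSP26, a chaperone that holds unfolding proteins, rose by 1.35 in the authors' deposited table of hrr25as (adjusted p = 0.0033), and had 1.79 in that of WT (adjusted p = 0.444). The WT value rested on condition B libraries of 407 and 1104 normalised reads, both above 224 and 214 in condition A. HSP42, the third chaperone of this kind, had -0.01 in WT and 0.33 in hrr25as and passed in neither.

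The 4 members that rose in both authors' deposited tables of 3MBPP1 were TFS1, DCS2, GAD1 and YMR196W. TFS1 (YLR178C, chromosome XII, 513162 to 513821), an inhibitor of the vacuolar protease carboxypeptidase Y, had 317 and 288 normalised reads in condition A and 676 and 874 in condition B in WT, and 163 and 161 against 399 and 477 in hrr25as. Both condition B libraries were higher than each condition A library in each strain. The authors' deposited tables give log2 effects of 1.36 in WT (adjusted p = 2.2e-05) and 1.43 in hrr25as (adjusted p = 0.0017). TFS1 also passed in limma with any 1 of the 4 libraries left out in each strain, with an adjusted p of at most 0.0179 in WT and 0.0425 in hrr25as. DCS2 (YOR173W, chromosome XV, 657264 to 658325), a relative of the mRNA cap scavenging enzyme Dcs1 that restrains it, had 301 and 328 normalised reads in condition A and 601 and 716 in condition B in WT, and 107 and 93.4 against 283 and 239 in hrr25as. Its condition B libraries were again the higher ones in both strains, with deposited log2 effects in the authors' tables of 1.07 (adjusted p = 1.5e-05) and 1.38 (adjusted p = 0.0079).

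GAD1 (YMR250W, chromosome XIII, 770801 to 772558), the glutamate decarboxylase used in oxidant tolerance, had 629.8 and 773 normalised reads in condition A and 1126 and 1346 in condition B in WT, and 473 and 363 against 1288 and 982 in hrr25as. YMR196W (chromosome XIII, 655076 to 658342) had 910.2 and 1023 against 1504 and 1811 in WT, and 901 and 850.0 against 3440.2 and 2232 in hrr25as. For both genes the conditions were separated in each strain. The authors' deposited tables give GAD1 log2 effects of 0.82 in WT (adjusted p = 0.0013) and 1.44 in hrr25as (adjusted p = 0.00044), and YMR196W 0.78 (adjusted p = 0.00073) and 1.70 (adjusted p = 0.026). Without the smaller condition A library of WT, the limma adjusted p was 0.123 for GAD1 and 0.119 for YMR196W.

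**Figure D2:**
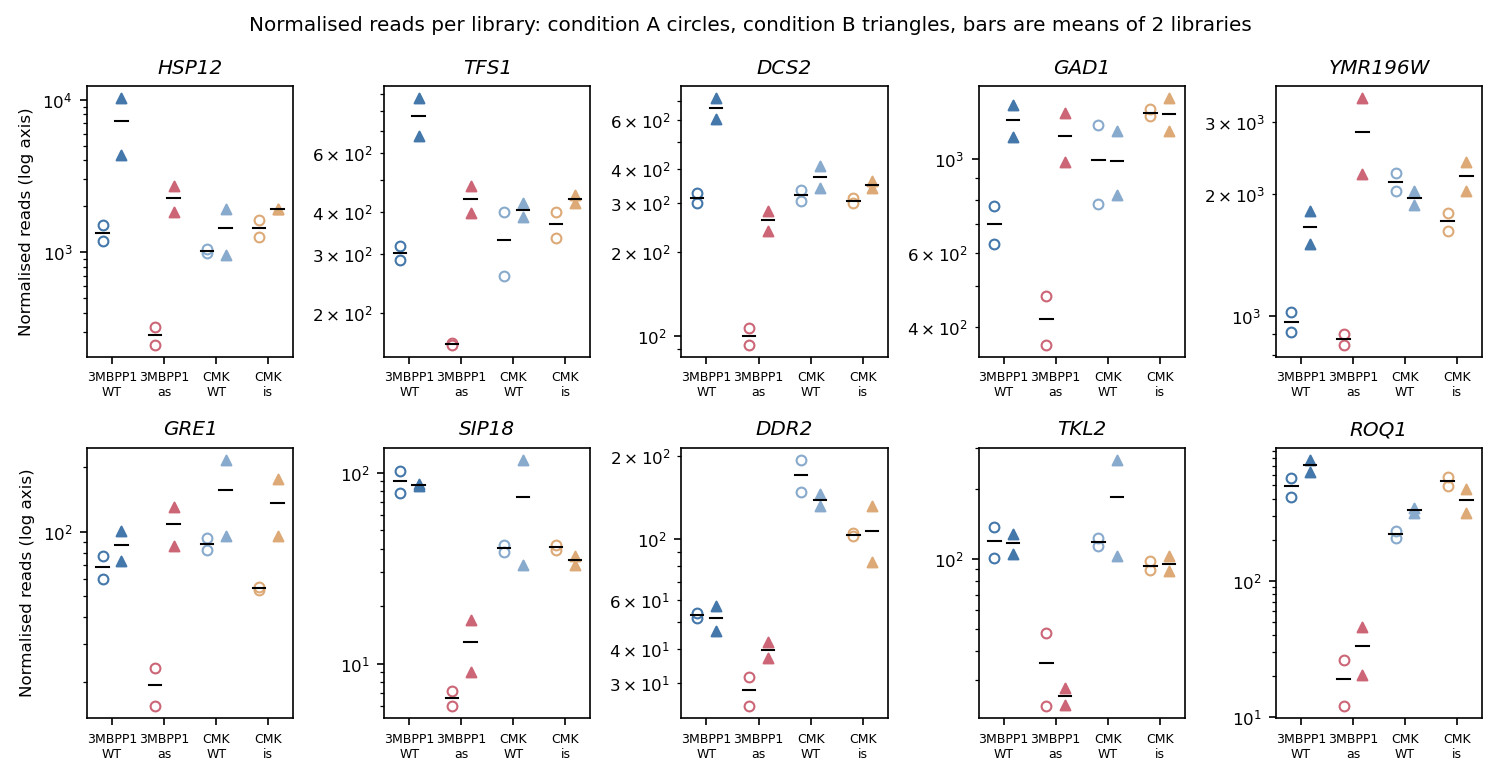
Normalised reads in each library for 10 members, on a log axis, by table (as stands for hrr25as and is for hrr25is), with open circles for condition A, triangles for condition B and bars for the mean of 2 libraries. The 3MBPP1 tables were normalised separately, so heights compare only within a table, except between the CMK tables. For HSP12 in hrr25as the triangles stand at 1830.1 and 2733 above circles at 248 and 325, while CMK conditions mostly lie close together.

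Among the antioxidant enzymes, the glutaredoxin GRX1 rose by 0.91 in the authors' deposited table of WT (adjusted p = 1.5e-05), with condition B libraries at 3723 and 3506 normalised reads above 2004 and 1834 in condition A, and had 0.67 in hrr25as (adjusted p = 0.360). The cytosolic catalase CTT1 and the glutathione peroxidase GPX1 passed in neither of the authors' deposited tables, at 0.21 and 0.37 in WT and 0.19 and 0.78 in hrr25as. CTT1 is a widely used reporter of Msn2 and Msn4, and its libraries overlapped between conditions in both strains: 303 and 429 against 325 and 521 normalised reads in WT, and 113 and 84.8 against 116 and 109 in hrr25as.

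Among 9 enzymes of carbon and cofactor metabolism, 1 rose in the authors' deposited table of WT (GAD1) and 4 in that of hrr25as, against 2.78% and 1.2% of all features. The 3 besides GAD1 in hrr25as were the hexokinase HXK1 at 1.32 (adjusted p = 0.0011), the glucokinase GLK1 at 1.38 (adjusted p = 0.00056) and the 6-phosphogluconolactonase SOL4 at 1.72 (adjusted p = 0.0090). Their deposited effects in WT were 0.99, 0.74 and 0.83 and did not pass. The transaldolase NQM1, the 6-phosphogluconate dehydrogenase GND2, the nicotinamidase PNC1 and the aldehyde dehydrogenase ALD3 passed in neither table, at 0.22 to 0.51 in WT and 0.29 to 0.79 in hrr25as. ALD3 lies beside its near-identical copy ALD2, so how reads were divided between them is uncertain. TKL2 (YBR117C, chromosome II, 474392 to 476437), the minor transketolase, had the lowest effect of any member in hrr25as, -0.47 in the authors' deposited table (adjusted p = 1.0). Its libraries overlapped, at 47.6 and 23.1 normalised reads in condition A and 27.6 and 23.4 in condition B, and at 138 and 101 against 128 and 105 in WT.

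GRE1 and SIP18 are paralogous hydrophilins, small proteins that protect others during water loss. GRE1 (YPL223C, chromosome XVI, 128632 to 129138) had 23.1 and 15.4 normalised reads in condition A and 86.1 and 131 in condition B in hrr25as, and 77.0 and 60.1 against 72.9 and 101 in WT. The conditions were separated in hrr25as and overlapped in WT, and the authors' deposited tables give log2 effects of 2.49 (adjusted p = 0.00053) and 0.34 (adjusted p = 0.698). SIP18 (YMR175W, chromosome XIII, 611016 to 611255) had 7.22 and 6.0 against 17.0 and 9.06 normalised reads in hrr25as, and 78.1 and 102 against 87.2 and 85.2 in WT. Its deposited log2 effect in the authors' table of WT was the lowest of any member, -0.06 (authors' adjusted p of 0.975), and in hrr25as it was 0.98 (adjusted p = 1.0) on few reads. The related small proteins STF2 and TMA10 had effects of 1.02 and 1.46 in WT, where STF2 passed in the authors' deposited table (adjusted p = 0.0361), and of 0.72 and 0.71 in hrr25as, where neither passed.

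Of the 6 regulators of transcription, proteolysis and RNA decay, 3 rose in the authors' deposited table of WT and 4 in that of hrr25as, TFS1 and DCS2 in both. Of all features, 2.78% and 1.2% rose in these tables. The inhibitor of proteinase A, PAI3, rose by 1.16 in WT (authors' deposited adjusted p = 4.7e-05) and had 1.44 in hrr25as (adjusted p = 0.205). XBP1, a repressor of transcription made under stress, rose by 1.91 in hrr25as (authors' deposited adjusted p = 0.0018), where condition B libraries held 145 and 116 normalised reads above 37.5 and 31.7, and had 0.32 in WT (adjusted p = 0.624). The zinc-finger factor USV1 stood just inside the threshold in the authors' deposited table of hrr25as, at 1.63 (adjusted p = 0.04999), and had 0.40 in WT (adjusted p = 0.370). ROQ1 (YJL144W, chromosome X, 146359 to 146673), which redirects the ubiquitin ligase Ubr1 under stress, had 413 and 571 normalised reads in condition A and 631 and 771 in condition B in WT, and 26 and 12 against 45.7 and 20.4 in hrr25as. Its deposited log2 effects in the authors' tables, 0.51 and 0.80, passed in neither (adjusted p = 0.333 and 0.978).

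The 2 members grouped here as mitochondrial proteins both rose in the authors' deposited table of WT, against 2.78% of all features. The outer membrane protein OM45 rose by 0.86 (adjusted p = 0.00016) and CYC7, the cytochrome c isoform of stressed and oxygen-poor cells, by 1.19 (adjusted p = 9.0e-07). CYC7 had 284 and 352 normalised reads in condition A and 676 and 770.4 in condition B there. In hrr25as it had 56.3 and 21.4 against 49.95 and 15.9, with overlapping conditions and a deposited log2 effect in the authors' table of -0.24 (adjusted p = 1.0). The wall protein SPI1 rose by 1.27 in the authors' deposited table of hrr25as (adjusted p = 0.0259), while the secreted glycoprotein YGP1 passed in neither. The phosphatase PHM8 rose by 0.66 in WT (authors' deposited adjusted p = 0.0049), and the reticulon RTN2 and the mating projection protein HBT1 passed in neither table. Among 8 less characterised members, UIP4 and MOH1 rose in WT beside YMR196W, and EGO4 and MSC1 rose in hrr25as beside it, EGO4 by 2.39 (authors' deposited adjusted p = 0.0017). DDR2 (YOL052C-A, chromosome XV, 231570 to 231755) and its paralogue HOR7 passed in neither table, nor did PHM7. DDR2 had 51.7 and 54.1 normalised reads in condition A and 57.4 and 46.4 in condition B in WT, and 31.8 and 24.8 against 37.2 and 42.3 in hrr25as.

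Counts in these tables moved with single libraries. In limma, 6 members passed as higher without the smaller condition A library of WT, against 0.732% of all features, and 22 without the smaller condition B library, against 4.96%. In hrr25as 9 passed as higher without the smaller condition A library, against 0.959% of all features. The share of all features called thus moved in the same direction as the members' count in WT. Without the larger condition B library of WT the median effect was 0.42 in place of 0.71, and that library lay above the smaller one for 30 of 40 members, against 51.5% of all features.

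The strain comparison asks whether the 3MBPP1 effect differs between hrr25as and WT. Called members were 4 in both authors' deposited tables, 8 in the WT table and not the hrr25as table (CYC7, GRX1, MOH1, OM45, PAI3, PHM8, STF2 and UIP4), 11 in the hrr25as table and not the WT table, and 17 in neither. Of all features, 2.78% were called higher in the WT table and 1.2% in the hrr25as table, and the share called in both is not given here. The deposited effect was the larger one in hrr25as for 31 of 40 members. Over all features the median difference of effects in limma was -0.02. Tested in limma as the difference of the within-table differences, 0 members passed an adjusted p of 0.05 in either direction, against 0.048% of all features each way. At an unadjusted p under 0.05 there were 6 members higher in hrr25as, against 5.46% of all features, and 0 lower, against 5.36%. A z test on the authors' deposited fold changes also called 0 members.

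Of those 6, XBP1 had the smallest adjusted p, with a difference of log2 effects of 1.56 (SE 0.30, 95% interval 0.89 to 2.24, limma adjusted p = 0.0961). GRE1 had the largest difference, 2.12 (SE 0.48, 95% interval 1.03 to 3.21, limma adjusted p = 0.157). The other 4 were USV1 at 1.18, HOR7 at 0.93, YMR196W at 0.89 and GLK1 at 0.66. CYC7 had the lowest difference, -1.49 (SE 0.79, 95% interval -3.29 to 0.31, limma adjusted p = 0.563). TFS1 had a difference of 0.08 with an interval of -0.52 to 0.67, and HSP12 one of 0.65 with an interval of -0.56 to 1.86, so both intervals include 0. The median difference over the members was 0.36, beside -0.02 for all features, and 32 of 40 were above 0.

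**Figure D3:**
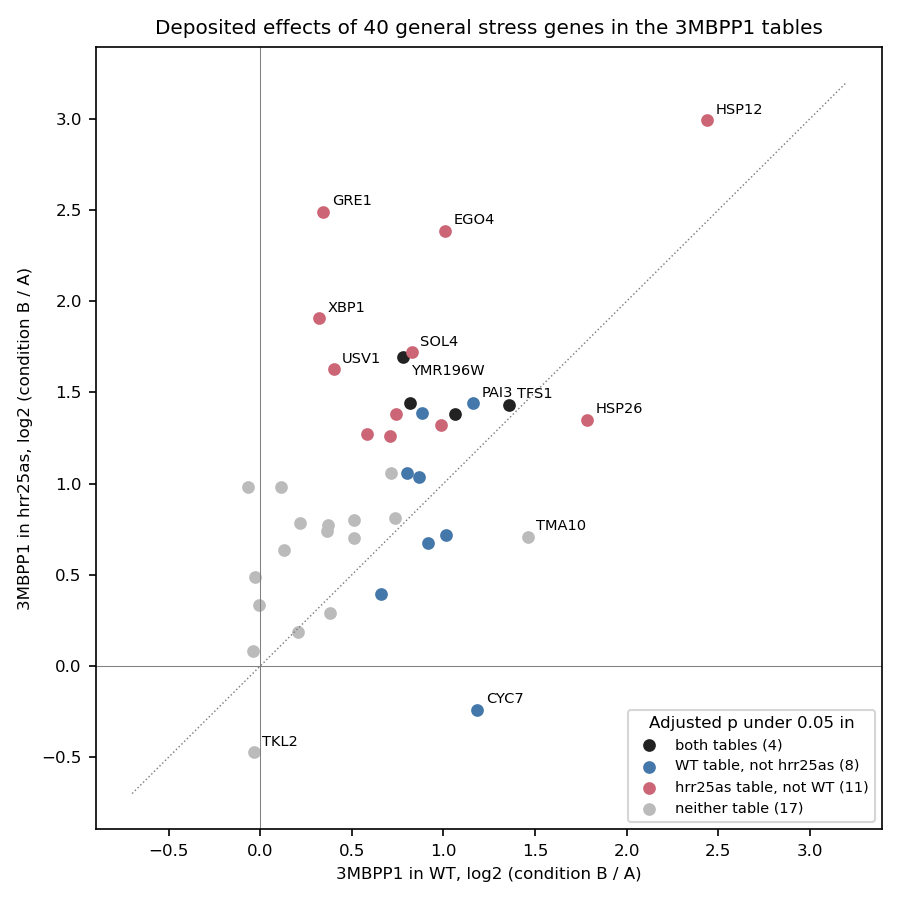
Deposited effects in the 3MBPP1 tables, log2 of condition B over condition A, with WT on the horizontal and hrr25as on the vertical axis. Each point is 1 member, coloured by the tables in which its deposited adjusted p was under 0.05, and the dotted line marks equal effects. GRE1 (0.34 and 2.49) and XBP1 (0.32 and 1.91) stand far above the line, and CYC7 (1.19 and -0.24) far below.

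CMK gave no call among these genes. By the authors' deposited test, 0 members passed in either direction, in WT (against 0.133% of all features higher and 0.0% lower) and in hrr25is (against 0.0148% higher and 0.0296% lower). The authors' unadjusted p was under 0.05 for 0 members in both tables, against 0.828% of all features higher and 0.178% lower in WT, and 0.207% and 2.07% in hrr25is. limma, which called 0 at an adjusted p, counted 1 member higher at an unadjusted p in each, TMA10 in WT, against 1.69% of all features, and GRE1 in hrr25is, against 1.7%. It counted 0 lower, against 0.237% and 4.08%. The median effect was 0.19 in WT, beside 0.01 for all features, and 0.02 in hrr25is, beside 0.01. Both condition B libraries lay above condition A for 12 members in WT, against 12.6% of all features, and for 10 in hrr25is, against 17.4%. They lay below for DDR2 and NQM1 in WT, 2 members against 12.8%, and for GND2, ROQ1, SIP18 and YGP1 in hrr25is, 4 members against 17.7%.

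Values under CMK are given for the same genes, the shared library last in both strains. HSP12 had 988 and 1052 normalised reads in condition A and 955 and 1908 in condition B in WT, and 1619 and 1265 against 1924 and 1908 in hrr25is, so that the WT conditions overlapped. TFS1 had 401 and 258 against 386 and 427 in WT, and 335 and 400.1 against 450.1 and 427 in hrr25is. DCS2 had 336 and 307 against 409 and 340.3 in WT, and 313 and 301 against 361 and 340.3 in hrr25is. The condition B values of DCS2 were the higher ones in both strains, but by little: its deposited log2 effects in the authors' tables were 0.22 and 0.19 (adjusted p = 1.0 in both). GAD1 had 1201 and 784 against 821 and 1163 in WT, and 1263 and 1313 against 1393 and 1163 in hrr25is. YMR196W had 2249 and 2034 against 1882 and 2035 in WT, and 1797 and 1621 against 2391 and 2035 in hrr25is. Of these, GAD1 overlapped between conditions in both strains, and YMR196W was separated, with condition B higher, in hrr25is. In hrr25is the last value of each of these genes is the shared library with WT markers. Strain and CMK cannot be told apart in that library, nor in the separations that rest on it. For YMR196W it held 2035, beside 2249 and 2034 in condition A of WT.

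Under CMK in WT, SIP18 had the highest at 0.90 and DDR2 the lowest at -0.30 in the authors' deposited table. SIP18 had 41.9 and 38.3 normalised reads in condition A and 117 and 33.0 in condition B, so the condition B library with the smaller size factor was the high one. DDR2 had 193 and 147 against 145 and 132, and TKL2 114 and 123 against 268 and 102. In hrr25is, GRE1 had the highest effect at 1.31 and ROQ1 the lowest at -0.46 in the authors' deposited table. GRE1 had 53.6 and 55.6 against 176 and 95.5 in hrr25is, and 82.4 and 93.4 against 217 and 95.5 in WT, separated upwards in both. The 95.5 is the shared library with WT markers in both, beside 82.4 and 93.4 in condition A of WT. Strain and CMK cannot be told apart in it, nor in the upward separation of GRE1 in hrr25is. ROQ1 had 492 and 578 against 467 and 314 in hrr25is and 205 and 233 against 342 and 314 in WT, so that its libraries were separated downwards in hrr25is and upwards in WT. The 314 is the shared library with WT markers in both, and the other hrr25is library of condition B, at 467, lay close below 492. Strain and CMK cannot be told apart in the hrr25is value of 314, nor in the lowest rank it gives ROQ1. SIP18, DDR2 and TKL2 in hrr25is had 39.5 and 42.0 against 36.5 and 33.0, 105 and 102 against 82.4 and 132, and 89.3 and 97.6 against 88.3 and 102.

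The hrr25is table was also read without the shared library, which leaves 1 library in condition B whose spread is taken from the others. In limma HSP26, GRE1 and USV1 then passed as higher, at 0.72, 1.67 and 0.81, against 5.25% of all features higher, in a fit that called 862 of 6760 features. With the shared library alone in condition B, HSP26, CYC7, TMA10 and EGO4 passed as lower, at -0.95, -1.23, -0.93 and -1.70, against 1.26% of all features lower. HSP26 thus turned direction with the library kept, from 1255 normalised reads in the smaller condition B library to 395 in the shared one, beside 884 and 657 in condition A. The shared library carries WT markers, and condition A of WT held 424 and 279 for HSP26. The values read as lower with it alone therefore set WT markers against hrr25is, and are not a measure of CMK in hrr25is. In WT, 1 member, PHM7, passed as higher, at 1.31, without the larger condition B library, against 7.69% of all features.

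In limma with all libraries but the repeat of the shared one, no member's effect differed between strains or compounds at an adjusted p under 0.05. A z test on deposited values called GAD1 between the compounds, with an implied error that is too small near 0. The CMK effect in hrr25is minus that in WT, with the shared library used once, had 0 members called by limma at an adjusted p of 0.05 and 0.0% of all features each way. At an unadjusted p under 0.05, limma counted 0 members higher, against 1.85% of all features, and 1 lower, against 3.68%. It was MOH1 at -1.30 (95% interval -2.57 to -0.04, limma adjusted p = 0.900), and a z test on the deposited values called 0. That z test used deposited values, which hold the shared library in both tables. In limma the median difference was 0.02, beside -0.04 for all features. HSP12 had a difference of 0.02 with an interval of -1.19 to 1.23.

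The compounds were compared at the same time of 1 hour, with doses that the sources used here do not give, over separately made libraries, so compound and library set cannot be told apart. In WT the CMK effect minus the 3MBPP1 effect had 0 members called in limma, against 0.0% of all features each way. At an unadjusted p under 0.05, limma counted 0 members higher, against 5.26% of all features, and 11 lower, against 4.52%. The median difference was -0.52, beside 0.05 for all features. GRX1 had the smallest adjusted p, with a difference of -1.15 (95% interval -1.72 to -0.58, limma adjusted p = 0.293), and HSP12 the lowest difference, -1.92 (95% interval -3.31 to -0.52, limma adjusted p = 0.380). Without the larger CMK condition B library of WT, 7 members passed as lower, against 4.62% of all features, and 1 as higher, against 4.99%. The z test on deposited values called 1 member, GAD1, at -0.82 (Benjamini-Hochberg adjusted p = 0.0105). The error it takes from a fold change and its p is too small near 0. GAD1 stood there under CMK in WT, with a deposited effect of -0.002, while limma gave that effect an SE of 0.31. No difference is drawn from this call.

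The sensitised strains were compared with their own compounds, CMK in hrr25is without the shared library and 3MBPP1 in hrr25as, so strain, compound and library set differ together. The difference was below 0 for 38 of 40 members, with a median of -0.79 beside -0.02 for all features. In limma 0 members passed in either direction, against 0.0% of all features each way, and at an unadjusted p under 0.05 it counted 0 higher, against 2.8% of all features, and 15 lower, against 3.13%. HSP12 had the lowest difference, -2.55 (95% interval -3.46 to -1.64, limma adjusted p = 0.364), followed in size by XBP1 at -1.98, MOH1 at -1.81 and EGO4 at -1.77 among those at an unadjusted p under 0.05. Without the smaller condition B library of hrr25as, HSP12 passed as lower, at -2.84 (limma adjusted p = 0.0292), against 0.032% of all features. The z test called GAD1 at -1.45 (Benjamini-Hochberg adjusted p = 0.0420). Unlike the limma values here, it used the deposited hrr25is effect, which includes the shared library with WT markers. That effect, -0.01 for GAD1, was again near 0.

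Condition A of the CMK tables could be compared between strains directly, because the size factors of both tables came from a single normalisation. In limma 0 members passed between hrr25is and WT at an adjusted p of 0.05, against 0.0444% of all features higher and 0.074% lower. At an unadjusted p under 0.05 it counted 10 members higher in hrr25is, against 5.13% of all features, and 1 lower, against 1.54%. TMA10 had the smallest adjusted p, at 732 and 636 normalised reads in hrr25is against 208 and 154 in WT, a log2 difference of 1.93 (SE 0.25, 95% interval 1.33 to 2.52, limma adjusted p = 0.0813). EGO4, with 295 and 183 against 68.9 and 55.1, and ROQ1, with 492 and 578 against 205 and 233, had log2 differences of 1.90 and 1.28. All these hrr25is libraries were higher than the WT ones. HSP26 at 1.15 and HSP42 at 0.83 were among the other members higher in hrr25is at an unadjusted p, and HBT1 was the one lower, at -0.60. The median over members was 0.27, beside 0.01 for all features; scaled by total reads instead of size factors, it turned to -0.07, beside -0.32 for all features.

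**Figure D4:**
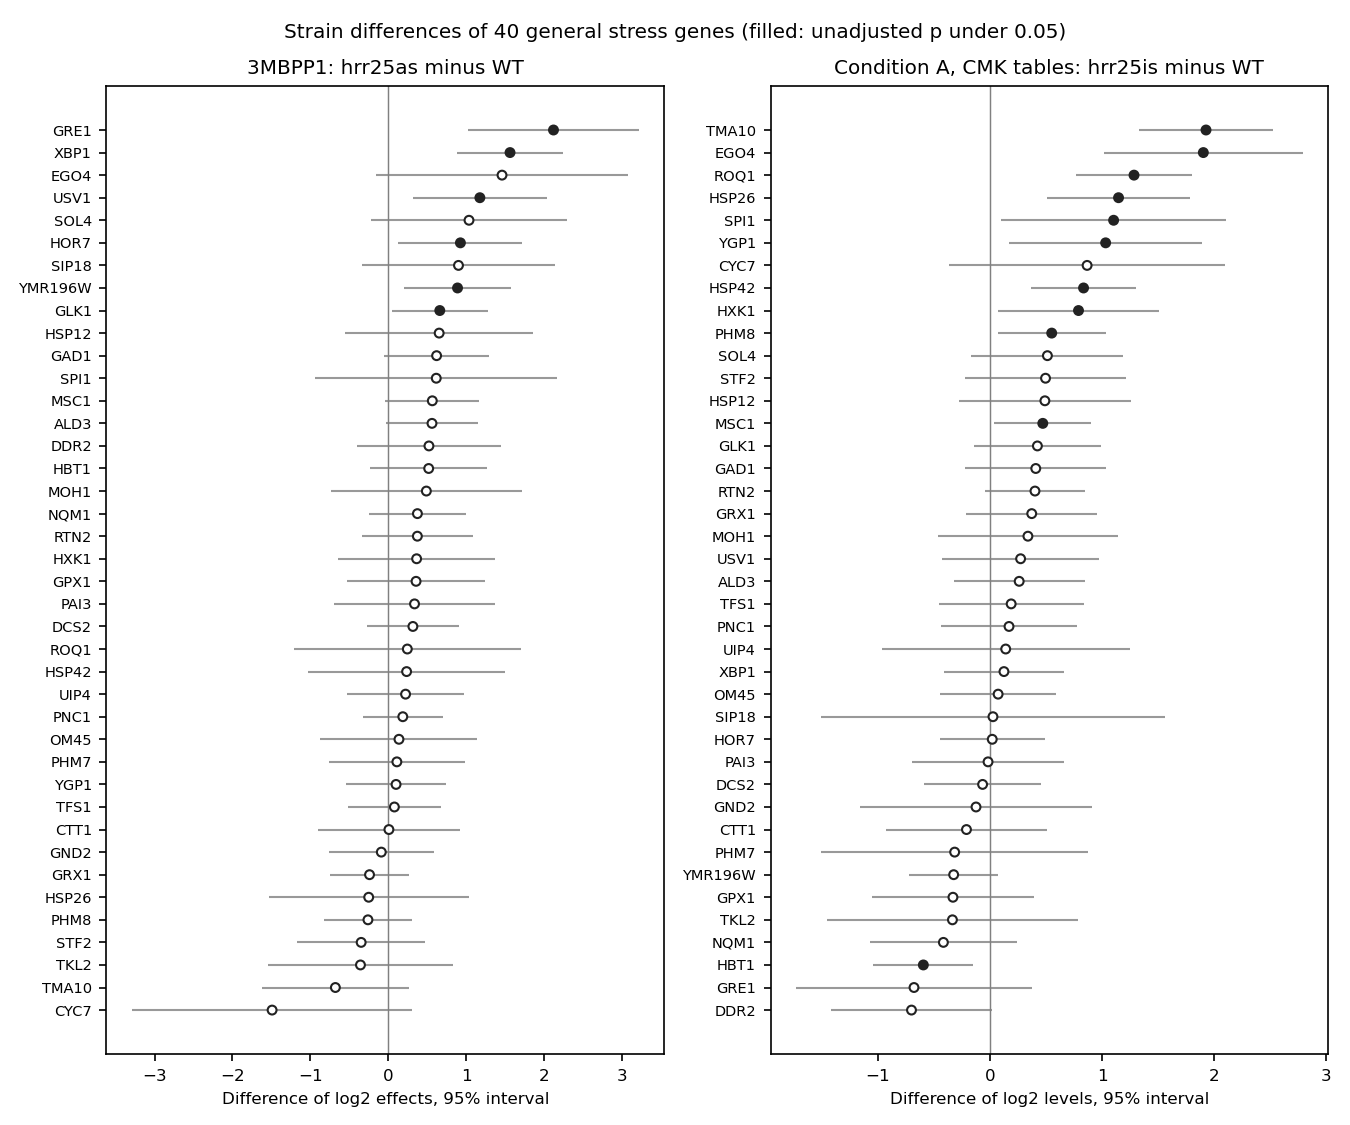
Differences between strains for the 40 members, as limma estimates with 95% intervals on a log2 scale, ordered by size. The left panel gives the 3MBPP1 effect in hrr25as minus that in WT and the right panel the condition A level in hrr25is minus that in WT, with filled points where the unadjusted p was under 0.05. GRE1 (2.12) and XBP1 (1.56) lead the left panel and TMA10 (1.93) the right, and no adjusted p was under 0.05.

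The members together took a small share of the protein-coding reads. In the 3MBPP1 table of WT it was 0.350% and 0.423% in condition A and 0.666% and 0.842% in condition B, and in hrr25as 0.203% and 0.244% against 0.639% and 0.676%. Under CMK it was 0.222% and 0.221% against 0.272% and 0.244% in WT, and 0.283% and 0.233% against 0.391% and 0.244% in hrr25is, the last value in both strains being the shared library. The condition B shares were the higher ones without overlap in both 3MBPP1 tables and in the CMK table of WT, and overlapped with condition A in that of hrr25is. The 95% Wilson intervals, which cover counting error only, reach at most 0.00766 percentage points to either side.

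Levels differ widely between members. As RPKM (reads per kilobase of coding sequence, scaled to protein-coding reads), HOR7, a small membrane protein, had the highest condition A level in every table, from 884 in hrr25is under CMK to 3476 in WT under 3MBPP1, and TKL2 the lowest, from 2.47 to 8.63. The median member level in condition A was 53.0 in WT and 21.2 in hrr25as in the 3MBPP1 tables and 28.0 in WT and 30.2 in hrr25is in the CMK tables, below the 62.4, 43.9, 49.0 and 41.9 of all protein-coding genes.

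The genes of regulators of Msn2 and Msn4 were read from the same tables. Of 34 genes for the factors themselves, protein kinase A and Ras, and other kinases and regulators, 1 rose in the authors' deposited WT table for 3MBPP1, which is 2.94% of the list beside 2.78% of all features, and 0 passed in the other 3 tables. It was BMH2, one of the 14-3-3 proteins that hold Msn2 in the cytoplasm, at 0.57 (adjusted p = 0.0150). The authors' deposited log2 effects of MSN2 were -0.12 and -0.06 under 3MBPP1 in WT and hrr25as and 0.02 and 0.33 under CMK in WT and hrr25is. Those of MSN4, the gene of the pair that is itself inducible, were 0.30 and 0.70 under 3MBPP1 and 0.00 and 0.29 under CMK, none of which passed. The list's medians were 0.04, 0.13, 0.03 and 0.14 with 3MBPP1 (WT, then hrr25as) before CMK (WT, then hrr25is).

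Another 24 textbook targets of the factors, outside the 40, had medians of 0.54, 0.73, -0.10 and -0.12 in the same order. In the authors' deposited WT table for 3MBPP1, 4 rose, against 2.78% of all features: polyubiquitin UBI4 at 0.91, the mitochondrial peroxiredoxin PRX1 at 1.04, UGP1, which makes UDP-glucose, at 0.73, and DDR48 at 0.87. In that of hrr25as, 5 rose, against 1.2%: the trehalose synthase subunit TSL1 at 1.23, glycogen phosphorylase GPH1 at 1.95, the glycogen branching enzyme GLC3 at 1.66, phosphoglucomutase PGM2 at 1.64 and the aldehyde dehydrogenase ALD4 at 1.31. None passed under CMK and none passed as lower. The disaggregase HSP104 and the mitochondrial chaperone HSP78, often listed with the stress genes, had 0.04 and -0.25 in WT and 0.06 and -0.47 in hrr25as under 3MBPP1 in the authors' deposited tables.

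Several members are the stress-induced copy of a duplicated pair, and 15 of 18 pairs considered have a partner outside the 40. The member had the higher deposited effect than its partner in 13 of 15 pairs under 3MBPP1 in WT and in all 15 in hrr25as, and in 13 and 11 under CMK in WT and hrr25is. Medians of members and partners in the authors' deposited tables were 0.71 and 0.13 for 3MBPP1 in WT and 0.79 and 0.01 for 3MBPP1 in hrr25as. Under CMK they were 0.17 and -0.08 in WT and -0.03 and -0.23 in hrr25is, so members also stood above partners there. HXK1 stood at 1.32 in hrr25as beside -0.42 for the main hexokinase HXK2, and CYC7 at 1.19 in WT beside -0.38 for CYC1, the cytochrome c of aerobic growth. SOL3 at 0.54 and GRX2 at 0.87 were the only partners that passed in any of the 4 tables, both in WT under 3MBPP1. RGM1, the partner of USV1, had 1.37 in hrr25as (authors' deposited adjusted p = 0.313).

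**Figure D5:**
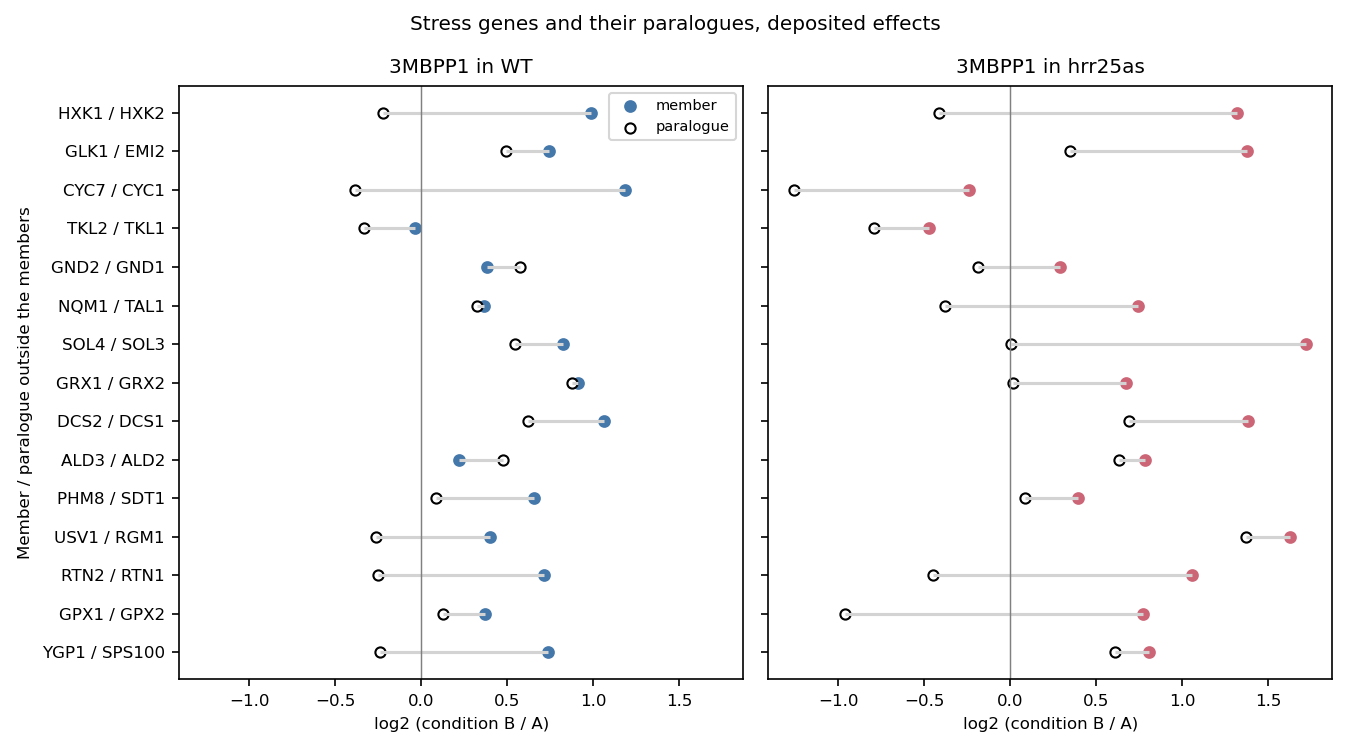
Deposited effects of 15 members (filled) and their paralogues outside the set (open) in the 3MBPP1 tables, as log2 of condition B over condition A, with a line joining each pair. The member stands to the right in 13 of 15 pairs in WT and in all 15 in hrr25as.

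The number of AGGGG or CCCCT matches did not order the effects in a single way. Under 3MBPP1 in WT the median deposited effect was 0.49 for the 12 members without a match in 250 bases, 0.80 for the 18 with 1 and 0.73 for the 10 with at least 2. In hrr25as the medians were 1.13, 0.79 and 1.16. Over all promoters, members included, 2.04% of features without a match rose in the authors' deposited table of WT. The shares were 7.52% with 1 match and 14.6% with at least 2. In hrr25as they were 0.849%, 1.69% and 6.35%. Of the 12, 18 and 10 members in these groups, 1, 8 and 3 rose in WT and 6, 4 and 5 in hrr25as. The groups with at least 2 matches held 130 promoters in WT and 126 in hrr25as, so the members weigh on those shares. PAI3 and SIP18 are read divergently from a shared gap of 650 bases (chromosome XIII, 610366 to 611015) that holds 3 matches, 125, 263 and 282 bases from PAI3. PAI3 rose in WT under 3MBPP1 while SIP18 had an effect of -0.06 there.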

How the data were processed

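RNA from 16 samples was measured by RNA sequencing, and the groups follow the samples' titles and characteristics. Per the submitters' processing notes, CASAVA 1.8.2, STAR 2.3.0, HTSeq 0.6.0 and build sacCer3 were used and the strand setting of the counting was not stated. The protocol names DMSO and CMK as treatments, while some titles and treatment labels name 3MBPP1. The authors deposited 4 comparisons with mean signals (means of normalised counts over the table and for conditions A and B), the fold change as a ratio of B to A, its log2, and p-values with adjusted p-values, per the file headers. The deposited adjusted p-values match a Benjamini-Hochberg adjustment over each whole table.

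Main calls are the authors' own, at an adjusted p under 0.05. Every condition mean was solved for 2 whole read counts and their size factors, which gave 1 solution for 99.8% to 100% of means and was tested on simulated data, where 100.0% were recovered. Recovered libraries carry no replicate number. Differences between tables were tested in limma 3.58.1 (R 4.3.3) with a trended variance on log2((reads + 0.5)/size factor), adjusted over all features in both tables. limma's fit was tested on simulated data. A z test used deposited log2 fold changes with errors implied by their p, which are too small where a fold change is near 0. Depth was 4275991 to 34122412 reads per library. Promoters were read from RefSeq R64.

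Library values are given for members past 0.05 in at least 2 tables and for those with the highest or lowest effect in a table; other members with library values were chosen after their values were seen. The members and all gene lists were chosen with earlier results of these data known. Alternatives tried were limma, limma-voom, total reads in place of size factors, a mean normalised count of at least 10, a threshold of 0.1 and leaving out each library.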

Additional observations from a re-analysis of the deposited data

How the results depend on the processing

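Of 111 alternatives to the counts and medians above, 93 stayed close and 18 moved, and of 216 for single genes 174 kept their call, 42 lost it and 0 reversed. Scaled by total reads instead of size factors, 23 members passed for 3MBPP1 in WT. The share of all features that passed there is not given here, so this count is not read as a result about the members. With that scaling the median effect was 1.32 for 3MBPP1 in hrr25as, 0.33 for CMK in WT and 0.34 for CMK in hrr25is, where all features shifted to 0.34, 0.14 and 0.33. Leaving out each library in turn, members called ranged from 6 to 22 for 3MBPP1 in WT, 9 to 16 for 3MBPP1 in hrr25as, 0 to 1 for CMK in WT and 0 to 4 for CMK in hrr25is. Median effects then ranged from 0.42 to 0.89, 0.94 to 1.17, 0.11 to 0.30 and -0.17 to 0.13 in the same order. Members called ranged from 0 to 8 for CMK minus 3MBPP1 in WT and from 0 to 1 for hrr25is with CMK minus hrr25as with 3MBPP1, and the z test on deposited values called 1 in each. The share of all features called is not given here for every fit behind these ranges. It is missing for the upper count of 3MBPP1 in hrr25as. The ranges of members called are therefore not read as a result about the members. The cause of these ranges was not tested. A lone library left in a condition is assumed to vary like the others. No paired analysis was possible because the recovered libraries carry no replicate number, so a replicate block was not run. With 2 libraries a condition, a call missed here does not show equal levels, and SIP18 in hrr25as rests on few reads.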

Other observations

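The 40 members lie on 14 chromosomes, and the nearest neighbours among them are the divergent PAI3 and SIP18, 650 bases apart. GAD1 and HOR7 stand 2193 bases apart with 1 gene between them, and only GAD1 of that pair passed in the authors' deposited 3MBPP1 tables. Under CMK in WT, condition B libraries differed by more than 2 times for 8 of 40 members, near the 20.7% of all features. This count is therefore not read as a result about the members. Among the 8, SIP18, TKL2 and PHM7 were higher in the smaller library. YGP1, at 615 and 1386 normalised reads, and SPI1, at 553 and 1327, were higher in the larger one.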
